A study of Homo sapiens with 12 samples.

Results

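The comparison described here asks what Senexin B, an inhibitor of the kinases CDK8 and CDK19, did to the transcripts of cells that also received tumor necrosis factor alpha (TNFα). It sets the 3 TNF_SnxB libraries against the 3 TNF libraries, 6 of the 12 libraries of the series, over the 14822 of 56634 genes that passed a filter on low counts. The cells were HEK293, an established human embryonic kidney line obtained from ATCC, and RNA was sequenced in bulk from 3 biological replicates of each group. TNF cells were kept in 0.1% DMSO for 1 h and then in 10 ng/mL TNFα for 2 h. TNF_SnxB cells received 1 µM Senexin B for 1 h and then 10 ng/mL TNFα for 2 h. The other groups, used as background, received 0.1% DMSO (DMSO) or 1 µM Senexin B (SnxB) for 3 h without TNFα. The values therefore describe 1 line at a single dose and time of each agent.

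CDK8 and its paralog CDK19 form, with cyclin C, MED12 and MED13, the kinase module of Mediator, the complex that connects DNA-bound transcription factors with RNA polymerase II. TNFα signals through its receptor to the IKK kinases, which release NF-kB from the IκB inhibitors, and NF-kB then induces chemokines, early response genes and the genes of its own inhibitors. The same receptor activates JUN kinase, which acts on the transcription factor AP-1. Immediate-early genes such as MYC, JUN and EGR1 give short-lived transcripts, whose levels can follow changes in transcription quickly.

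The promoters of 5 genes picked from the results are shown: CXCL1, CXCL8, CXCL10 and NFKBIA, which were high with TNFα and lower with the inhibitor, and TIFA, which was high with TNFα and higher with the inhibitor. The sequences are from RefSeq (GRCh38.p14), run 5′ to 3′ on the strand of the gene and end before its first transcribed base. Capitals mark matches to GGANNTTCC, a form of the NF-kB site searched on both strands. CXCL1 lies at chr4:73869143-73869392 (plus strand), CXCL8 at chr4:73740319-73740505 (plus), CXCL10 at chr4:76023498-76023747 (minus), NFKBIA at chr14:35404750-35404999 (minus) and TIFA at chr4:112285905-112286154 (minus).
CXCL1: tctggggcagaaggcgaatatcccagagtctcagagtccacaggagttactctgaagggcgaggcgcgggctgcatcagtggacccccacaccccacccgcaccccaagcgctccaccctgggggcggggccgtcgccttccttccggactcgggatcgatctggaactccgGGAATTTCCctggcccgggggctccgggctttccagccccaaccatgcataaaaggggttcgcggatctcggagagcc
CXCL8: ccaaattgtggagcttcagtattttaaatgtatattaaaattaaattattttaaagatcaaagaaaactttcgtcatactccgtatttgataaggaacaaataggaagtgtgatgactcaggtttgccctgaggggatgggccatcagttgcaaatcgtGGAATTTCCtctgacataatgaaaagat
CXCL10: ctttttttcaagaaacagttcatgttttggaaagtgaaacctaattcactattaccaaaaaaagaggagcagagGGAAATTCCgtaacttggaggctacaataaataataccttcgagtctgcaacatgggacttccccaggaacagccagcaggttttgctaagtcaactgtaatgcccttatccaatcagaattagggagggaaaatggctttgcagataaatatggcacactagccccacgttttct
NFKBIA: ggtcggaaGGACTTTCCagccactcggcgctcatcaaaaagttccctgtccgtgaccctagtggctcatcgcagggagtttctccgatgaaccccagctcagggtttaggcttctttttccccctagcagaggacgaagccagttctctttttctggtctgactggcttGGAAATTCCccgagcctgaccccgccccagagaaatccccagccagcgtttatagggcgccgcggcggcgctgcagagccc
TIFA: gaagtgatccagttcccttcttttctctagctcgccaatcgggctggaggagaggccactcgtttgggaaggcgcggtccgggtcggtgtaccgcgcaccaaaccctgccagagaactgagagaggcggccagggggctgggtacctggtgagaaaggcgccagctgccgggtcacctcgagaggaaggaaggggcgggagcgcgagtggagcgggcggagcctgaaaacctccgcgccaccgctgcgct
The match lies 78 to 70 bases before the RefSeq start in CXCL1, 91 to 83 in CXCL8 and 176 to 168 in CXCL10. NFKBIA has 2 matches, 242 to 234 and 81 to 73 bases before its start, and in the TIFA window these letters were not found. Of all 35116 windows of 300 bases (250 before and 50 after a start), 4.56% hold a match, as do 6.23% of the windows of the 10884 tested genes that have one. These 5 picked genes do not compare falls with rises. Among genes that TNFα raised, 5 of 9 windows of genes that fell hold a match. For raised genes that did not fall by the rule below, 10 of 25 windows do. CXCL10, among the 5, and CXCL2, among the 10, passed the filter on low counts only through the TNF libraries, which favors a fall.

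In TNFα-treated cells with Senexin B, 11 of 47 transcripts raised at least 2-fold by TNFα on average were lower, 1 higher and 35 neither. Of the 47, 5 passed the filter on low counts only through the TNF libraries, which favors a fall. Of 17 mitotic transcripts 10 were higher, 8 of them also after a correction for GC content. By the same rule, given below, 1.67% of all tested genes were lower and 0.533% higher. MYC, a growth-promoting transcription factor, fell 4.17-fold, the chemokine CXCL1 5.01-fold, and JUN, HSPA1A, IRS4 and IER3 by 2.55- to 3.10-fold. NFKBIA and SDC4 fell 1.56- and 1.71-fold, and TIFA rose 1.46-fold. AURKA, NDC80, CENPE and TTK, which act in mitosis, rose by 1.35- to 1.45-fold. Levels are in CPM, counts scaled to a common library size with the TMM method, and changes are edgeR fold changes or, with a standard error (SE), log2 fold changes. In bulk RNA, fewer cells with a transcript and less of it per cell cannot be told apart.

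**Figure D1:**
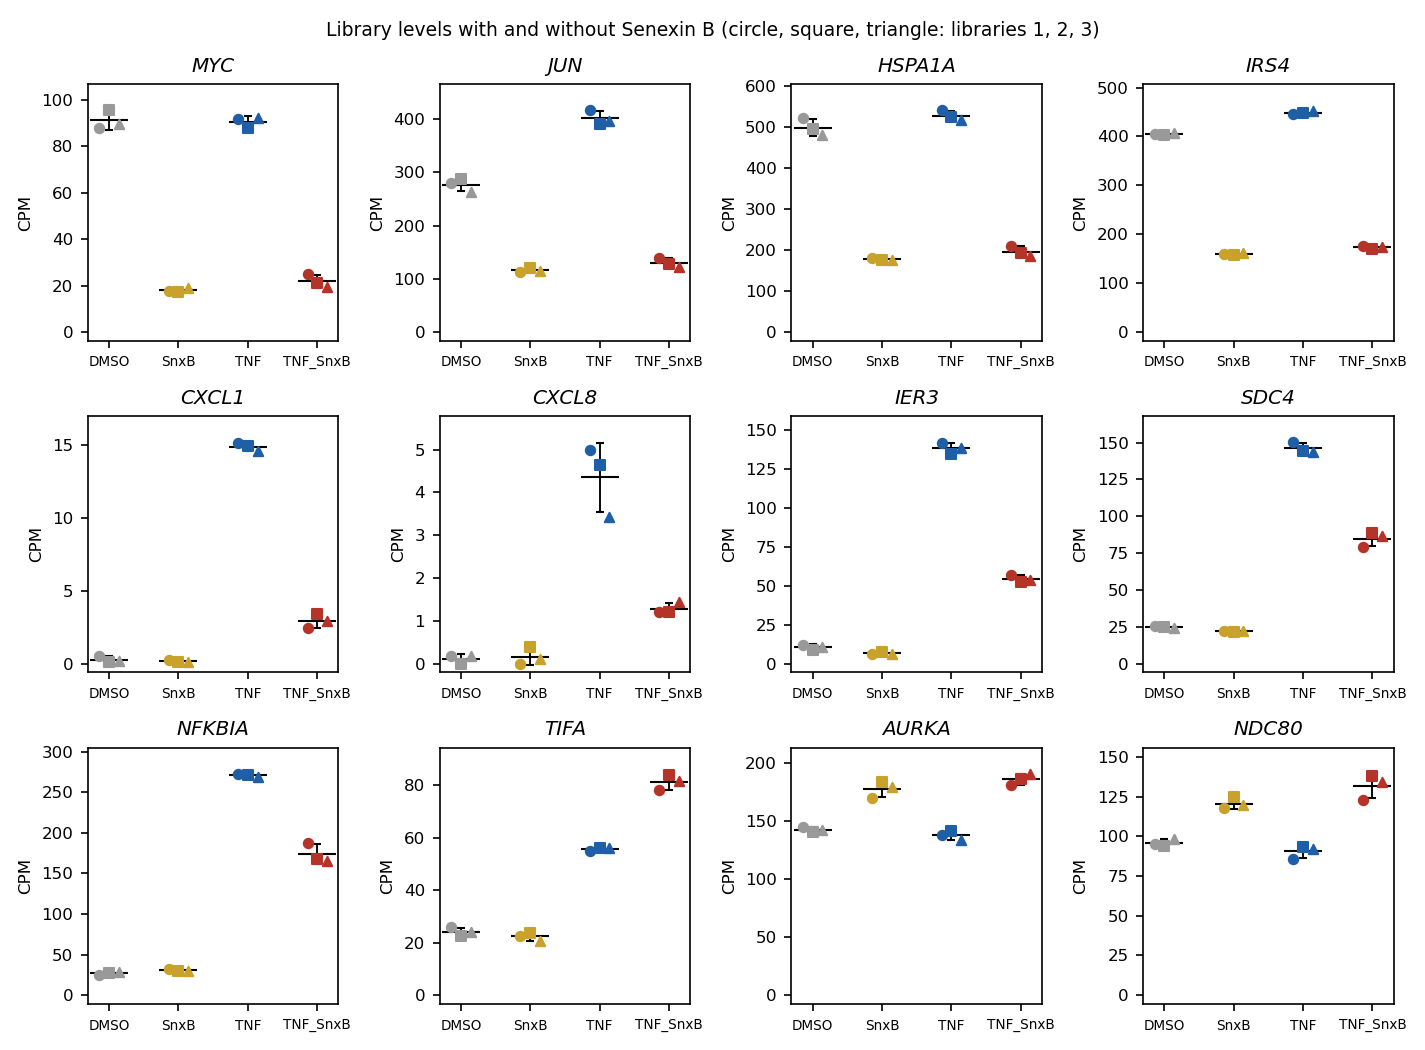
CPM (y axis, linear) of 12 genes in the 4 groups (x axis), 1 point per library, with the mean (wide bar) and the SD of the 3 libraries (thin bar). MYC, JUN, HSPA1A and IRS4 are low in both groups with Senexin B, CXCL1, CXCL8, IER3 and SDC4 are high with TNFα and lower with TNFα and Senexin B, and TIFA, AURKA and NDC80 have their highest mean in TNF_SnxB.

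The 3 TNF_SnxB libraries did not behave alike, which set how a change was counted. Between libraries of the TNF group the chi-square per degree of freedom over genes was 1.068 to 1.186, and between TNF_SnxB libraries 2 and 3 it was 1.21, but TNF_SnxB library 1 differed from these by 5.631 and 5.39. The deviation of a gene from its mean over the libraries went with the GC content of its transcript, with a Spearman coefficient of -0.692 in TNF_SnxB libraries 2 and 3, 0.135 in library 1 and 0.388 to 0.457 in the TNF libraries. These coefficients are over 13438 genes, which share libraries and are not replicates. A gene was therefore said to agree only when edgeR called it (adjusted p under 0.05) in library 1 alone and in libraries 2 and 3, in the same direction. Both comparisons use the same 3 TNF libraries, so agreement is not an independent repeat. Library totals of the 6 libraries ran from 9121184 to 50943310 counts, the highest being TNF library 2, and a total of 3 counts corresponds to 0.0589 to 0.329 CPM there.

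By this rule 247 genes were lower (1.67% of those tested) and 79 were higher (0.533%), 326 in all (2.2%). With TNF_SnxB library 1 alone, 289 genes were called lower (1.95%) and 110 higher (0.742%), and with libraries 2 and 3, 3355 were lower (22.6%) and 3437 higher (23.2%). With all 3 libraries in 1 group, 2055 were lower (13.9%) and 1974 higher (13.3%), and the sum of 4029 became 1869 without TNF_SnxB library 3, 2018 without library 2, 6769 without library 1 and 2493 without TNF library 2. After the counts were corrected for transcript GC content and length, 176 of the 247 (1.19% of tested genes) and 57 of the 79 (0.385%) still agreed. The 3 TNF and 3 TNF_SnxB values did not overlap for 245 of the 247 and 77 of the 79. Over all tested genes 16.4% were lower and 15.6% higher with no overlap. The rule itself selects for such separation, so these shares are no separate support. Median log2 fold changes over the 247 were -0.37 in library 1 and -0.43 in libraries 2 and 3, and over the 79 they were 0.25 and 0.32. Falls were larger than rises: 20 of the 247 fell at least 2-fold and 64 at least 1.5-fold, against 1 and 3 of the 79. Of all 14822 tested genes 47 changed at least 2-fold and 333 at least 1.5-fold, in either direction.

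**Figure D2:**
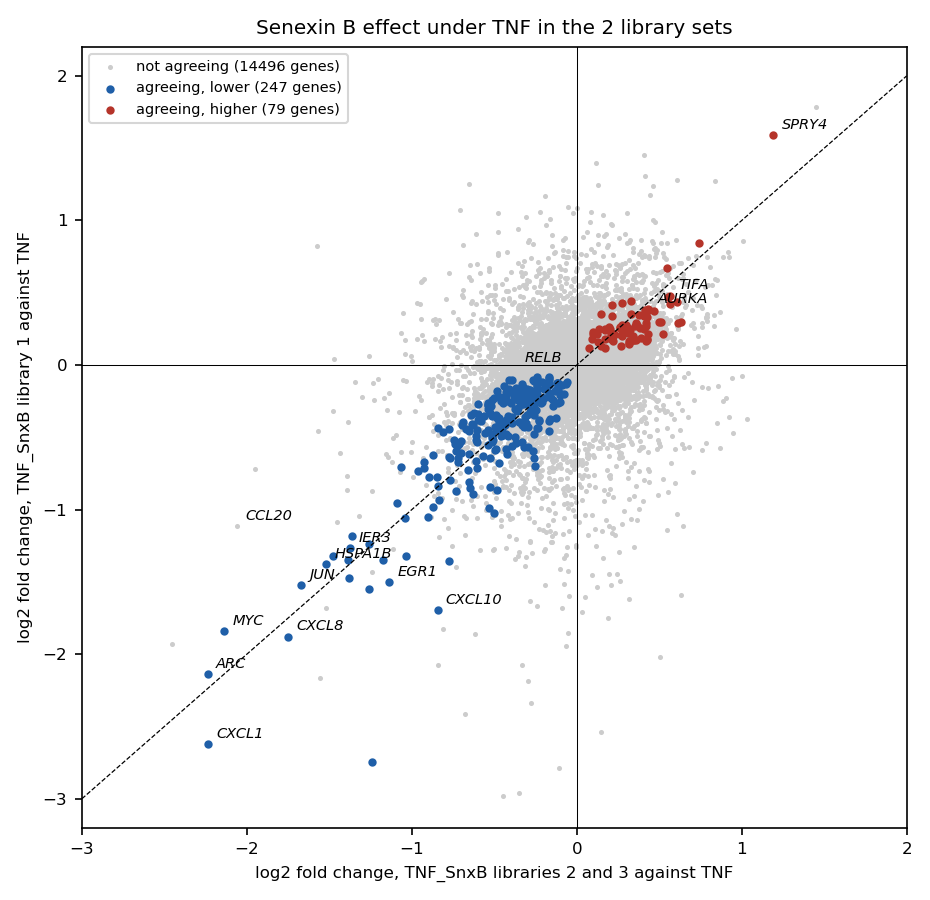
Log2 fold change against TNF of TNF_SnxB libraries 2 and 3 (x axis) and of TNF_SnxB library 1 (y axis), 1 point per tested gene, with agreeing genes in color and the dashed line marking equal values; 10 genes lie outside the axes. Grey points spread along the x axis near 0 on the y axis, and the 247 lower and 79 higher genes lie in the 2 corners where both values have the same sign.

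The largest fall among agreeing genes was that of a chemokine. In CXCL1, which attracts neutrophils, the TNF libraries held 15.2, 14.96 and 14.6 CPM and the TNF_SnxB libraries 2.42, 3.43 and 2.93. Every TNF_SnxB value was thus far below every TNF value, with a log2 fold change of -2.33 (SE 0.13, edgeR adjusted p = 1.41e-13). CXCL8, which encodes interleukin 8, held 4.98, 4.64 and 3.43 CPM in TNF and 1.21, 1.196 and 1.43 in TNF_SnxB, a log2 fold change of -1.78 (SE 0.23, edgeR adjusted p = 2.78e-06). CXCL10, a T cell attractant usually linked to interferon, held 2.66, 2.54 and 2.29 CPM in TNF and 0.768, 1.60 and 1.22 in TNF_SnxB, the lowest value being that of library 1. CXCL10 fell by 1.02 (SE 0.24), and agreed no longer without TNF library 2 (adjusted p = 0.0915) or without TNF_SnxB library 3 (adjusted p = 0.131).

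Of the 10 tested chemokine genes these 3 agreed lower and 0 higher. CXCL10, CCL20 and CXCL2 passed the filter on low counts only through the TNF libraries, which favors a fall, so no median is given for this list. With an unadjusted p under 0.05 in both comparisons, a rule that 4.65% of all tested genes passed lower and 3.58% higher, 6 of the 10 were lower and 0 higher. By DESeq2 0.911% of tested genes agreed lower and 0.189% higher, and for this list DESeq2 gave no agreeing member, since it gave CXCL1, CXCL8 and CXCL10 no adjusted p. CCL20, an attractant of dendritic and T cells, held 2.10, 1.89 and 1.85 CPM in TNF and 0.878, 0.239 and 0.643 in TNF_SnxB. These values do not overlap, but the larger of the 2 adjusted p of CCL20 was 0.282. The neutrophil attractants CXCL2 and CXCL3 averaged 2.11 ± 0.395 and 6.18 ± 0.267 CPM in TNF and 0.963 ± 0.212 and 3.71 ± 0.661 in TNF_SnxB (± SD over 3 libraries), with larger adjusted p of 0.26 and 0.216 (edgeR). In DMSO and SnxB libraries CXCL10 and CCL20 had 0 counts. CXCL1 averaged 0.265 and 0.143 CPM there and CXCL8 0.115 and 0.162, a few counts per library, so the falls were measured on levels reached with TNFα.

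Of the genes that encode NF-kB subunits and their inhibitors, NFKBIA and NFKBIZ fell. NFKBIA, which encodes IκBα and shuts NF-kB off again, held 272, 271 and 269 CPM in TNF and 188, 168 and 165 in TNF_SnxB, with no overlap and a log2 fold change of -0.65 (SE 0.046, edgeR adjusted p = 1.74e-11). It remained far above its level without TNFα, which was 27.3 ± 1.94 CPM in DMSO and 30.8 ± 1.56 in SnxB (± SD over 3 libraries). NFKBIZ, an atypical nuclear IκB protein, fell by 0.57 (SE 0.11) from 11.3 ± 0.722 to 7.40 ± 0.528 CPM, and did not agree without TNF library 3 (adjusted p = 0.0608). These were the 2 agreeing genes of 11 tested NF-kB subunit and IκB genes, and 0 of the 11 agreed higher. At an unadjusted p 2 of the 11 were lower and 0 higher. DESeq2 gave 1 and 0, with no adjusted p for NFKBIZ. RELB, an NF-kB subunit, held 48.5, 49.2 and 51.6 CPM in TNF and 48.8, 40.04 and 37.2 in TNF_SnxB. Library 1 of TNF_SnxB lay within the TNF values of RELB, and its larger adjusted p was 0.951.

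TIFA, an adaptor that carries signals to TRAF6 and NF-kB, went the other way. It held 54.9, 56.1 and 56.2 CPM in TNF and 78.0, 84.0 and 81.7 in TNF_SnxB, all 3 above all of TNF, a log2 fold change of 0.54 (SE 0.052, edgeR adjusted p = 1.05e-08). Without TNFα it was 24.1 ± 1.61 CPM in DMSO and 22.4 ± 1.60 in SnxB (± SD over 3 libraries). TIFA was the 1 agreeing member of 13 tested NF-kB feedback regulators. A further member, TNFAIP3, which encodes the ubiquitin-editing enzyme A20, averaged 42.5 ± 1.63 CPM in TNF and 36.4 ± 1.81 in TNF_SnxB, with no overlap but a larger adjusted p of 0.411. Among 16 genes of the TNF receptor and IKK chain, 2 agreed higher and 0 lower, with 2 higher and 1 lower at an unadjusted p and none by DESeq2. BIRC2, a ubiquitin ligase at the receptor, rose from 41.5 ± 0.377 to 53.6 ± 3.38 CPM, and TAB2, a scaffold of the kinase TAK1, from 81.2 ± 0.187 to 98.7 ± 4.03. BIRC2 no longer agreed after the GC correction or without TNF library 2 (adjusted p = 0.119) or 3 (0.0506), and TAB2 not without TNF library 2 (0.0526).

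Several other TNFα-induced genes fell. IER3, an early response gene that affects cell survival, held 142, 135 and 139 CPM in TNF and 57.0, 52.2 and 53.5 in TNF_SnxB. The groups of IER3 stand far apart, with a log2 fold change of -1.35 (SE 0.054, edgeR adjusted p = 2.22e-17). SDC4, a heparan sulfate proteoglycan of the cell surface, held 151, 144 and 144 CPM in TNF and 79.4, 88.6 and 86.6 in TNF_SnxB, a log2 fold change of -0.78 (SE 0.046, edgeR adjusted p = 3.08e-13). BMP2, a growth factor of the TGF-beta family, fell from 57.0 ± 1.54 to 36.9 ± 1.06 CPM, the 1 agreeing gene of 9 cytokines and growth factors. GADD45B, a stress-response gene, fell from 41.0 ± 0.782 to 25.7 ± 2.36, and CD83, a surface protein of activated immune cells, from 70.1 ± 2.55 to 53.2 ± 2.82 (± SD over 3 libraries). C10orf10 fell from 18.7 ± 0.614 to 7.45 ± 0.917 CPM. Of 28 tested members of the list of further TNF target genes, 7 agreed lower and 0 higher (SDC4, IER3, CD83, GADD45B, RHOB, SQSTM1 and EFNB1), with a median log2 fold change of -0.19, beside 0.00066 over all tested genes; 1 of the 28, G0S2, passed the filter on low counts only through the TNF libraries. With unadjusted p 10 of the 28 were lower and 0 higher, and DESeq2 gave 5 and 0. SQSTM1 kept its agreement in 6 of 19 alternatives, and lost it after the GC correction, with DESeq2 and without any 1 TNF library.

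A wider set was the 47 genes (0.317% of tested genes) that TNFα raised at least 2-fold on average, over cells with and without the inhibitor. That average is computed from these same libraries, so the set describes which induced transcripts were affected and is not separate evidence, and 5 of the 47 passed the filter on low counts only through the TNF libraries, which favors a fall. Of the 47, 11 agreed lower (CXCL10, CXCL1, CXCL8, IER3, NFKBIA, JUNB, C10orf10, SDC4, CD83, BMP2 and GADD45B), 1 higher (TIFA), and 35 neither. The log2 fold change was below 0 for 37 of the 47, as for 49.9% of all tested genes, and the median log2 fold change was -0.34 in library 1 and -0.19 in libraries 2 and 3. BIRC3, EFNA1, BCL3, IRF1 and NFKB1, named after their values were seen, did not agree, with log2 fold changes of -0.04, -0.02, 0.01, -0.07 and 0.08. TNFRSF9, a receptor of the TNF receptor superfamily, did not agree, with 7.14 ± 0.946 CPM in TNF and 6.48 ± 0.673 in TNF_SnxB (± SD over 3 libraries). Of the 9 genes among the 11 with a RefSeq window, 5 hold the printed NF-kB form (55.6%), as do 10 of 25 (40%) among the genes of the set that did not agree lower. Of all agreeing lower genes 15 of 190 (7.89%) and of the agreeing higher genes 5 of 70 (7.14%) hold it.

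Of 12 tested AP-1 genes 4 agreed lower and 0 higher. JUN, the main AP-1 subunit, held 417, 392 and 396 CPM in TNF and 139, 129 and 122 in TNF_SnxB, a log2 fold change of -1.63 (SE 0.046, edgeR adjusted p = 3.03e-21). All 3 TNF_SnxB values of JUN were also below its level without TNFα, 276 ± 12.2 CPM in DMSO (SD, n = 3). JUND fell from 138 ± 1.73 to 71.6 ± 10.8 CPM, ATF3, a stress-induced partner of JUN, from 73.7 ± 1.36 to 40.7 ± 3.16, and JUNB from 57.5 ± 0.211 to 41.9 ± 4.51 (± SD over 3 libraries). JUNB did not agree after the GC correction (adjusted p = 0.103), with the replicate block (0.0789) or by DESeq2 (0.208). The median log2 fold change of the 12 was -0.52. By unadjusted p 6 of the 12 were lower and 0 higher, and DESeq2 gave 3 and 0.

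Of 19 other immediate-early genes 6 agreed lower and 0 higher. One member, KLF2, passed the filter on low counts only through the TNF libraries, which favors a fall. ARC, a regulator of synaptic receptors that serum and neuronal activity induce, held 11.6, 12.2 and 12.2 CPM in TNF and 2.74, 2.23 and 2.86 in TNF_SnxB, a log2 fold change of -2.21 (SE 0.14, edgeR adjusted p = 5.32e-13). EGR1, a zinc finger factor induced through ERK and serum response factor, held 11.2, 12.1 and 12.9 CPM in TNF and 4.28, 5.66 and 5.36 in TNF_SnxB, with no overlap. Smaller falls were those of KLF4, a stem cell factor, from 7.05 ± 0.829 to 4.71 ± 0.689 CPM, of BTG2, an antiproliferative gene, from 54.5 ± 1.94 to 45.9 ± 1.17, and of IER2 from 32.1 ± 1.24 to 24.1 ± 1.37 (± SD over 3 libraries). Without TNF library 2, KLF4, BTG2 and IER2 did not agree (adjusted p = 0.108, 0.0952 and 0.186), and IER2 not after the GC correction either. At an unadjusted p 8 of the 19 were lower and 0 higher, and DESeq2 gave no agreeing member, with no adjusted p for ARC, EGR1 and KLF4.

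Feedback genes of the ERK kinases moved in both directions. DUSP1, a phosphatase that switches off MAP kinases, fell from 54.0 ± 3.71 to 30.4 ± 3.44 CPM (± SD over 3 libraries), a log2 fold change of -0.82 (SE 0.069). SPRY4, an inhibitor of receptor tyrosine kinase signaling, held 1.22, 0.933 and 1.41 CPM in TNF and 3.18, 2.87 and 2.00 in TNF_SnxB. Its log2 fold change of 1.30 (SE 0.25) was the largest of the agreeing rises, at a low level, and it did not agree without TNF library 2 (adjusted p = 0.0934) or with the replicate number as a block (adjusted p = 0.0508). These were the 2 agreeing genes of 16 tested.

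MYC was the 1 agreeing gene of 10 in its network. It held 91.7, 87.9 and 92.0 CPM in TNF and 25.02, 21.2 and 19.5 in TNF_SnxB, a log2 fold change of -2.06 (SE 0.066, edgeR adjusted p = 5.56e-20). Without TNFα MYC held 91.1 ± 4.00 CPM in DMSO and 18.1 ± 0.789 in SnxB (± SD over 3 libraries). IRS4, an insulin receptor substrate that HEK293 cells are known to contain, held 446, 449 and 452 CPM in TNF and 176, 169 and 175 in TNF_SnxB, with no overlap and a log2 fold change of -1.38 (SE 0.035, edgeR adjusted p = 5.67e-22). ADAMTS1, a secreted metalloprotease, fell from 248 ± 5.39 to 100 ± 7.64 CPM, and FAM84A from 16.1 ± 0.214 to 6.07 ± 0.406.

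The heat shock genes HSPA1A and HSPA1B, which encode the inducible chaperone HSP70, lie close together at chr6:31815464-31817946 and chr6:31827735-31830255 (GENCODE 29, GRCh38, plus strand). They are near-identical copies, and how the deposited counting divided reads between them is not given in the sources used here, so their single values are uncertain. HSPA1A held 539, 522 and 515 CPM in TNF and 210, 193 and 184 in TNF_SnxB, and HSPA1B 700, 648 and 654 and then 256, 233 and 230. Both were far below TNF in every TNF_SnxB library, with log2 fold changes of -1.43 (SE 0.042) and -1.48 (SE 0.042). HSPA8, the constitutive HSP70, fell from a mean of 1532 to 1201 CPM. Of 14 chaperone genes these 3 agreed lower and 0 higher, at an unadjusted p 6 and 0, and with DESeq2 3 and 0.

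Some target genes of developmental signals fell. Of 12 TGF-beta and BMP target genes 4 agreed lower and 0 higher. ID4, ID3 and ID2, inhibitors of helix-loop-helix factors, fell from 138 ± 4.25 to 73.0 ± 3.28 CPM, from 125 ± 5.45 to 91.1 ± 4.57 and from 66.6 ± 0.563 to 47.6 ± 3.55 (± SD over 3 libraries), and SKI, a repressor of SMAD factors, by 0.30 (SE 0.040). Of 11 Notch target genes 3 agreed lower and 0 higher: NRARP, a Notch feedback inhibitor, fell from 60 ± 0.743 to 37.3 ± 2.37 CPM, and the repressors HEY1 and HES1 from 42.9 ± 0.587 to 27.6 ± 1.57 and from 59.2 ± 1.89 to 42.3 ± 1.198. Of 13 Wnt target genes 3 agreed lower and 0 higher: the stem cell receptor LGR5 by 0.36 (SE 0.058), the ubiquitin ligase ZNRF3 by 0.31 (SE 0.063) and the G1 cyclin CCND1 by 0.59 (SE 0.061). ZNRF3 did not agree without TNF library 2 (adjusted p = 0.103). Of 12 YAP and SRF target genes 2 agreed lower and 0 higher, CTGF, a matricellular protein, by 0.74 (SE 0.11) and gamma actin, ACTG1, by 0.19 (SE 0.032). ACTG1 did not agree after the GC correction or without TNF library 1 or 3 (adjusted p = 0.0975 and 0.0952). By unadjusted p the lower and higher members were 5 and 0 (TGF-beta and BMP), 5 and 0 (Notch), 3 and 1 (Wnt) and 2 and 0 (YAP and SRF). DESeq2 gave 4, 3, 2 and 0 lower members and 0 higher in each, CTGF and ACTG1 missing the threshold there (adjusted p = 0.0521 and 0.0513).

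Metabolic and stress genes were divided within their lists. Of 23 genes of sterol and fatty acid synthesis 5 agreed lower and 0 higher, with a median log2 fold change of -0.041. INSIG1, a sterol sensor, fell from 350 ± 8.63 to 224 ± 10.6 CPM, HMGCS1, an early enzyme of the pathway, from 451 ± 10.1 to 312 ± 24.9, and IDI1 and SQLE by 0.32 (SE 0.043) and 0.28 (SE 0.038), while 18 members did not agree. FASN, the fatty acid synthase, held 1273, 1249 and 1257 CPM in TNF and 1169, 970 and 948 in TNF_SnxB, and did not agree after the GC correction. Before adjustment 6 of the 23 were lower and 1 higher, and DESeq2 gave 5 and 0. Of 20 hypoxia and glycolysis genes 3 agreed lower, NDRG1, DDIT4 and the hexokinase HK2, and 1 higher, the mitophagy receptor BNIP3. NDRG1 fell from 67.3 ± 1.13 to 32.6 ± 1.14 CPM, and BNIP3 rose from 43.98 ± 2.84 to 55.8 ± 4.02 (± SD over 3 libraries), though not without TNF library 2 (adjusted p = 0.0794). Of 13 p53 target genes 2 agreed lower and 0 higher, the pro-apoptotic BBC3, from 28.1 ± 1.29 to 15.7 ± 1.68 CPM, and PMAIP1, from 415 ± 2.04 to 253 ± 26.1. By unadjusted p 4 of the 13 were lower and 1 higher, and DESeq2 gave 2 and 0. Of 17 genes of the ATF4 and unfolded protein response ATF5 and SLC7A5 agreed lower and SESN2 higher, and of 9 NRF2 target genes GCLC agreed lower. SLC7A5 did not agree after the GC correction or without TNF library 3 (adjusted p = 0.0521), and SESN2 not without TNF library 3 (0.0565) or TNF_SnxB library 3 (0.291).

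**Figure D3:**
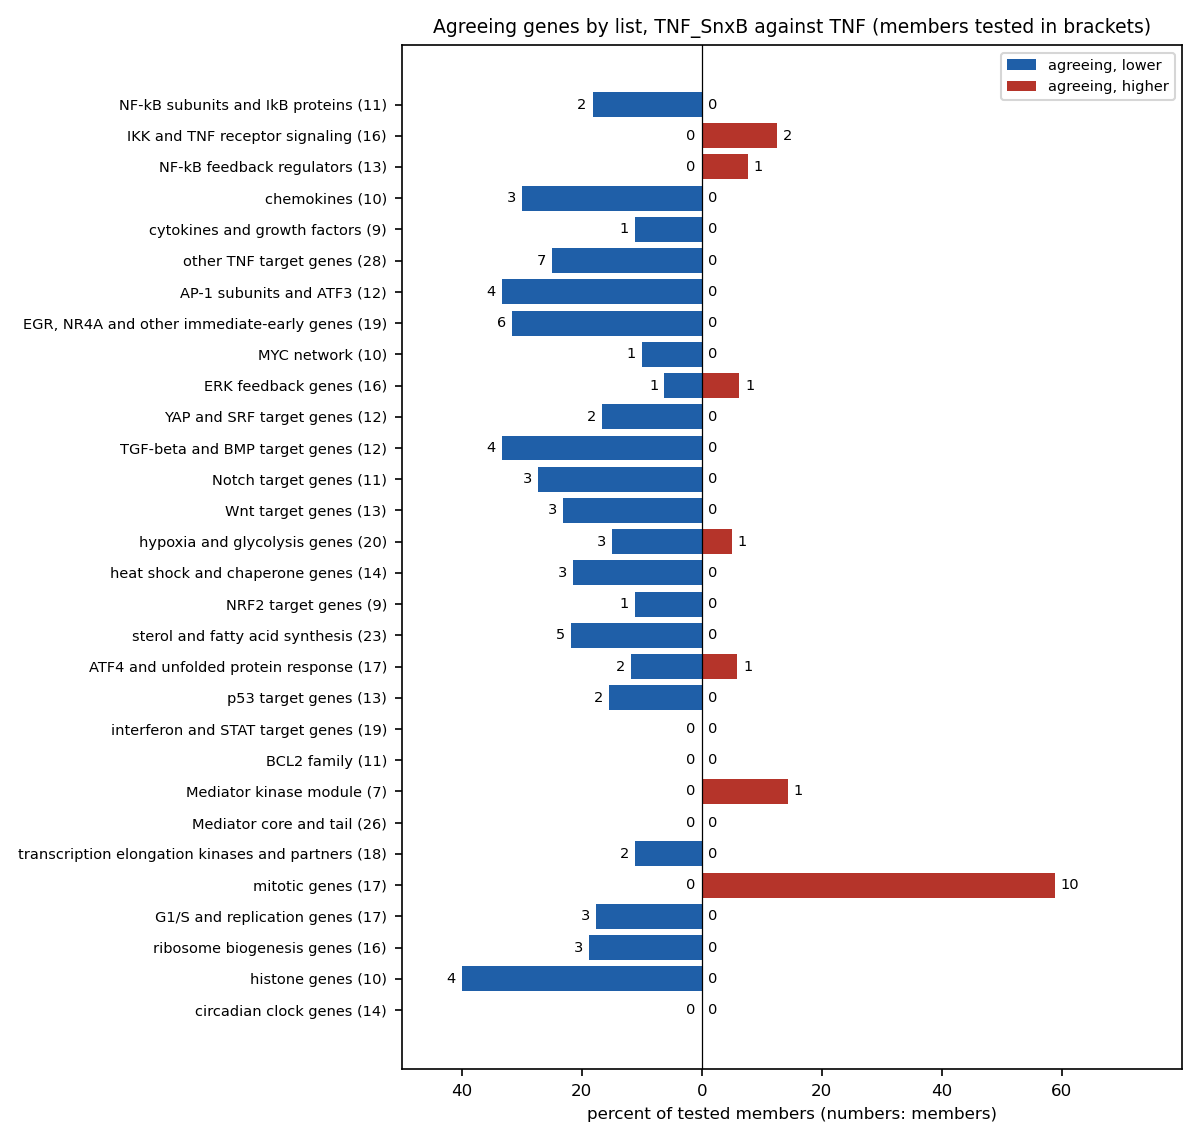
Share of the tested members of 30 gene lists (y axis, number tested in brackets) that agreed lower (to the left) or higher (to the right) in TNF_SnxB against TNF (x axis, percent; figures at the bars are numbers of members). Over all tested genes 1.67% agreed lower and 0.533% higher; the mitotic list has the highest share to the right, 10 of 17, and chemokine, AP-1, immediate-early and histone genes have 3 to 6 members to the left.

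Mitotic genes had the most agreeing rises of the lists examined. Of 17 tested members 10 agreed higher and 0 lower (AURKA, CCNB1, BUB1, TTK, CENPE, CENPF, TOP2A, PSRC1, HMMR and TPX2), 8 of them also after the GC correction. The median log2 fold change of the 17 was 0.17 in library 1, 0.28 in libraries 2 and 3, and 0.14 over all 3 after the GC correction. At an unadjusted p 11 of the 17 were higher and 0 lower, and DESeq2 gave 7 and 0. AURKA, the kinase of the spindle poles, held 138, 141 and 134 CPM in TNF and 181, 186 and 190 in TNF_SnxB, with no overlap and a log2 fold change of 0.43 (SE 0.042, edgeR adjusted p = 1.44e-08). NDC80, which links kinetochores to microtubules and is not in the list, held 85.9, 93.6 and 92.1 CPM in TNF and 123, 138 and 134 in TNF_SnxB, a log2 fold change of 0.54 (SE 0.048, edgeR adjusted p = 3.22e-09).

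CENPE and TTK, both counted above, are also among the largest rises. CENPE, a kinetochore motor, held 110, 113 and 110 CPM in TNF and 137, 174 and 169 in TNF_SnxB, with library 1 the lowest of the 3 but above all of TNF. TTK, a kinase of the spindle checkpoint, rose from 84.5 ± 1.93 to 116 ± 10.2 CPM, and outside the list PLK4, which starts centriole duplication, from 44.5 ± 0.647 to 60.04 ± 2.94, and DEPDC1 from 145 ± 1.46 to 210 ± 27.6 (± SD over 3 libraries). KIF14, a motor of cytokinesis, rose from 79.1 ± 2.58 to 108 ± 12.7 CPM, but did not agree after the GC correction or without TNF library 1 or 3 (adjusted p = 0.0786 and 0.0554). GTF2A1, a subunit of the general factor TFIIA, rose from 74.0 ± 1.56 to 108 ± 7.34 CPM and G2E3, a ubiquitin ligase, from 61.0 ± 2.96 to 83.2 ± 6.80. SYT14, RWDD2A, FRMD4B and TTC33 rose at lower levels, RWDD2A from 8.11 ± 0.468 to 12.5 ± 0.779 CPM. After the GC correction SYT14 and TTC33 did not agree, nor SYT14 without any 1 TNF library (adjusted p = 0.0658 to 0.0692) or SnxB library 2 (0.0501), nor FRMD4B without TNF library 2 (0.153).

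Some genes of the earlier cell cycle and of growth fell. Of 17 G1/S and replication genes 3 agreed lower and 0 higher, CCND1, RRM2 and CDT1. RRM2, a subunit of ribonucleotide reductase, fell from 345 ± 1.73 to 286 ± 17.4 CPM (± SD over 3 libraries), and CDT1, a licensing factor, by 0.33 (SE 0.052), though not after the GC correction or without TNF library 2 (adjusted p = 0.0915), TNF library 3 (0.0971) or SnxB library 2 (0.0512). CDT1 and APRT end 80 bases apart on opposite strands, and whether the counting used strand is not given in the sources used here. Of 10 histone genes 4 agreed lower and 0 higher: H2AFX fell by 0.54 (SE 0.057), H1F0 by 0.43 (SE 0.042), HIST1H2AC by 0.38 (SE 0.090) and H2AFZ by 0.13 (SE 0.034). H2AFZ did not agree without TNF_SnxB library 3 (adjusted p = 0.063) and HIST1H2AC not without TNF_SnxB library 2 (0.134). Of 16 ribosome biogenesis genes 3 agreed lower and 0 higher, DKC1, RRS1 and POLR1B. DKC1, which modifies ribosomal RNA, fell from 358 ± 4.11 to 309 ± 4.45 CPM. RRS1 did not agree after the GC correction or without TNF library 3 (adjusted p = 0.0692), and POLR1B, whose groups overlap, not without TNF library 2 (0.343) or 3 (0.0782), TNF_SnxB library 3 (0.432) or SnxB library 3 (0.0502). Before adjustment 8 G1/S, 6 ribosome biogenesis and 5 histone genes were lower and 0 higher, and DESeq2 gave 2, 1 and 3 lower and 0 higher.

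The transcripts of the kinases that Senexin B inhibits did not agree in either direction. CDK8 held 39.9, 38.6 and 35.5 CPM in TNF and 37.1, 44.1 and 38.5 in TNF_SnxB, and CDK19 30.6, 28.8 and 28.4 and then 28.3, 35.3 and 35.0. In both genes the groups overlap, with all 3 libraries the adjusted p were 0.421 and 0.0408, and with library 1 alone the log2 fold changes were -0.042 (SE 0.090) and -0.035 (SE 0.099). CCNC, cyclin C, averaged 81.3 ± 2.98 CPM in TNF and 94.0 ± 12.7 in TNF_SnxB, and MED12 88.2 ± 2.99 and 84.6 ± 4.08 (± SD over 3 libraries), with larger adjusted p of 0.972 and 0.902 (CCNC 0.0106 with all 3 libraries). MED13 rose from 166 ± 2.86 to 200 ± 13.3 CPM, but did not agree after the GC correction or without any 1 TNF library (adjusted p = 0.0526 to 0.109), TNF_SnxB library 3 (0.0557) or any 1 SnxB library (0.0543 to 0.0577). MED13L and MED12L had larger adjusted p of 0.073 and 0.742. Among 18 transcription elongation kinases and partners, HEXIM1, an inhibitor of the elongation kinase P-TEFb, fell from 74.97 ± 2.35 to 56.3 ± 2.93 CPM, and BRD2, an acetyl-lysine reader, from 676 ± 8.52 to 500 ± 23.2, and 0 agreed higher. Before adjustment 2 of the 18 were lower and 3 higher, and DESeq2 gave 2 and 0. CCNT1, the cyclin of P-TEFb, lay just outside the rule, with a larger adjusted p of 0.0514.

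Some lists had no agreeing gene. Of 19 interferon and STAT target genes 1 was lower and 1 higher at an unadjusted p, of 11 BCL2 family genes 0 and 1, of 26 genes of core Mediator 0 and 1, and of 14 circadian clock genes 3 and 0. DESeq2 gave no agreeing member in any of these 4 lists. Their median log2 fold changes were 0.031, -0.054, 0.038 and -0.11. IFIT2, of the interferon and STAT list, passed the filter on low counts only through the TNF libraries, which favors a fall.

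Without TNFα many of the same genes were lower. In SnxB against DMSO, which shares no library with this comparison but enters the same fit, 250 genes were called lower (1.69%) and 51 higher (0.344%). Of the 247 agreeing lower genes 132 were among those 250 (53.4% of the 247, 52.8% of the 250) and 0 were among the 51. Of the 79 agreeing higher genes 18 were among the 51 (22.8% of the 79, 35.3% of the 51) and 0 among the 250. The SnxB against DMSO value was below 0 for 231 of the 247 genes and for 4 of the 79, beside 49% of all tested genes, with medians of -0.24 and 0.14, beside 0.0025. The log2 fold changes with and without TNFα were -2.21 and -2.13 in ARC (difference -0.08, SE 0.23), -1.48 and -1.46 in HSPA1B (-0.02, SE 0.059) and -1.38 and -1.34 in IRS4 (-0.03, SE 0.050). In MYC they were -2.06 and -2.33, a smaller fall with TNFα by 0.27 (SE 0.105, edgeR adjusted p = 0.117). In library 1 alone MYC had -1.84, and the difference was 0.49 (SE 0.125, edgeR adjusted p = 0.0905).

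**Figure D4:**
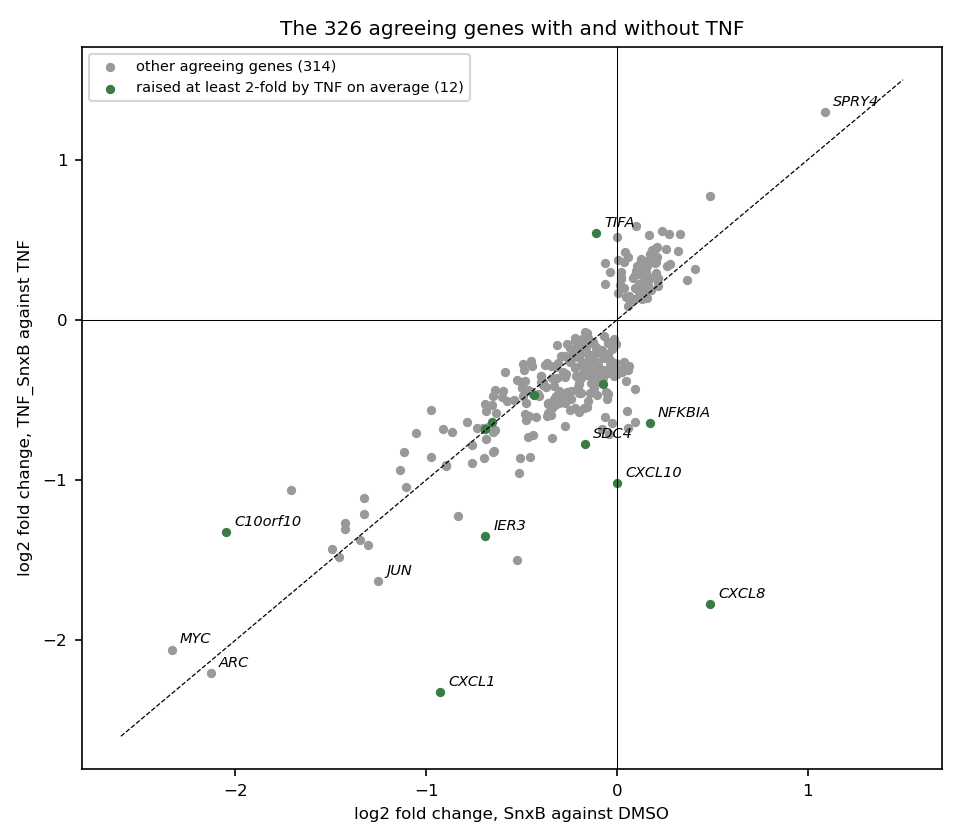
Log2 fold change of SnxB against DMSO (x axis) and of TNF_SnxB against TNF (y axis) for the 326 agreeing genes, 1 point per gene, with the dashed line marking equal values and in green the 12 genes that TNFα raised at least 2-fold on average. MYC and ARC lie near the line; NFKBIA, SDC4, CXCL1, CXCL8 and CXCL10 lie well below it and TIFA above it, the SnxB against DMSO values of the 3 chemokines resting on few or no counts.

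The difference between the inhibitor effects with and without TNFα was tested as an interaction, again required in library 1 alone and in libraries 2 and 3. It was called lower for 5 genes (0.0337%) and higher for 3 (0.0202%). NFKBIA, SDC4 and JUN fell more with TNFα than without it, by -0.82 (SE 0.091), -0.61 (SE 0.091) and -0.38 (SE 0.066) on the log2 scale, and TIFA rose more, by 0.65 (SE 0.095), with edgeR adjusted p of 1.3e-05, 0.00128, 0.0141 and 0.00128 over all 3 libraries. APRT, a purine salvage enzyme, and FASN were called as well, at -0.31 (SE 0.060) and -0.33 (SE 0.065). APRT and FASN lost the agreement after the GC correction. The remaining 2, LDHA and PGK1, were not agreeing genes. The interaction of JUN with library 1 was not called without TNF library 1 (adjusted p = 0.0988), DMSO library 3 (0.0679) or SnxB library 2 (0.237), nor by DESeq2 (0.41). CXCL1 and CXCL8 were too low without TNFα for this test to be read.

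**Figure D5:**
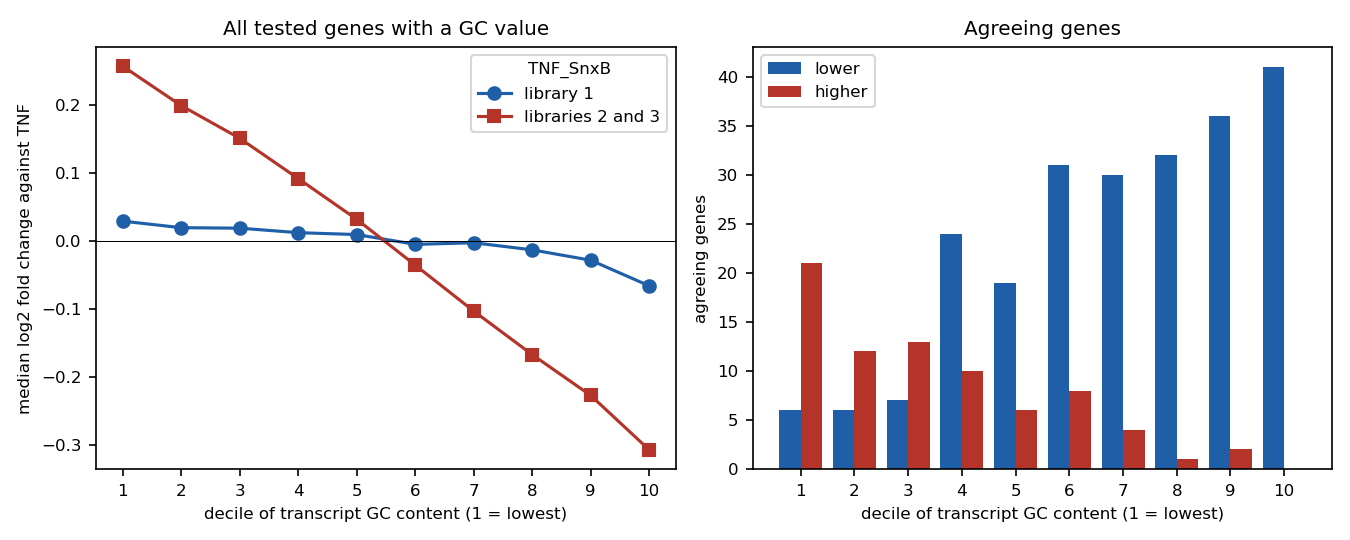
Left, tested genes are divided into 10 bins by the GC content of their transcripts (x axis, bin 1 holding the lowest), and the y axis gives the median log2 fold change against TNF in each bin for TNF_SnxB library 1 and libraries 2 and 3; right, the number of agreeing genes in each bin. The line of libraries 2 and 3 runs from 0.257 to -0.307 and that of library 1 from 0.0292 to -0.0659, and agreeing lower genes go from 6 to 41 and higher ones from 21 to 0.

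The agreeing genes also differed from all tested genes in GC content, gene length and gene type. The rule did not use these measures directly, but the GC trend of the libraries enters both of its comparisons. Median transcript GC content was 54.3% in the lower genes (quartiles 48.1 and 60.1), 42.5% in the higher genes (38.4 and 46.7) and 48.7% in all tested genes (42.3 and 57.0). This runs the same way as the GC trend of the libraries, which in library 1 alone is weaker but not flat, and its part in the counts was not tested beyond the correction above. The lower genes were short, with a median gene length of 10546 bases (quartiles 4027 and 22398) beside 32514 over all tested genes (12387 and 81622), and the higher genes had a median of 43567. Of the lower genes 227 of 247 and of the higher genes 77 of 79 are annotated as protein coding, beside 84.2% of all tested genes. Genes without a GENCODE match were counted here as not protein coding. Levels, which enter the rule, also differed: median CPM in TNF was 93 in the lower genes, 81.2 in the higher and 27 in all tested. Whether level or GC content accounts for the differences in length and type was not tested. At the limit of the rule, MGAT1, POLR1E and HNRNPH1 lie just inside, with larger adjusted p of 0.0499, 0.0499 and 0.0495, and BAHCC1, EAPP and CCNT1 just outside, with 0.0512, 0.0518 and 0.0514.

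Markers of the line and of other cell types were read in the same libraries. The 7 HEK293 markers summed to 852 to 864 CPM in TNF and 776 to 789 in TNF_SnxB. NEFL, a neurofilament subunit known from HEK293 cells, and VIM agreed lower, by 0.42 (SE 0.057) and 0.14 (SE 0.035), VIM not after the GC correction. The 7 leukocyte markers summed to 0.864 to 1.13 CPM in TNF and 0.321 to 0.877 in TNF_SnxB, with PTPRC, CD3E and CD68 at 0 counts. The 4 endothelial markers summed to 0.451 to 0.87 and 0.289 to 0.804 CPM, with CDH5 at 0, and the 6 fibroblast markers to 15 to 16.4 and 15.3 to 17.2 CPM, with COL1A2 and DCN at 0. The fibroblast markers COL1A1 and COL3A1 passed the filter on low counts, with 2478 and 252 counts over the 12 libraries. CD14 had the most counts of the leukocyte markers, 83, and KDR of the endothelial ones, 51.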

How the data were processed

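RNA of 12 libraries, 3 in each of 4 groups, was extracted with RNeasy and made into TruSeq RNA libraries, per the labels' protocols. The authors deposited 1 table of raw read counts for 56634 genes. The submitters' processing notes name hg38, STAR 2.4, SAMtools 1.2 and featureCounts of Subread 1.4.6, while for annotation and strand the sources used here give nothing. The labels call the replicates biological, and p-values reflect the spread between the libraries. That spread was small. The chi-square per degree of freedom between TNF libraries, 1.068 to 1.186, was close to that of counting noise alone. The biological coefficient of variation in the fit of the 4 groups was 3.49%, so very small p-values rest on a small spread. Where TNF_SnxB library 1 was its own group, its difference from libraries 2 and 3 did not enter the spread.

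The counts were fitted with edgeR 4.0.16 (R 4.3.3) over all 12 libraries (filterByExpr, TMM, quasi-likelihood F test, Benjamini-Hochberg adjustment over 14822 genes, threshold 0.05). Printed adjusted p-values are edgeR's unless DESeq2 is named. A fit with 4 groups gave the values over all TNF_SnxB libraries, and one with TNF_SnxB library 1 as its own group gave the separate contrasts, where library 1 is a lone sample assumed to vary like the other groups. The SE is the log2 fold change divided by the square root of F. The larger adjusted p is that of the weaker of the 2 contrasts. GC content and length came from GENCODE 29, matched for 13438 genes (90.7%), and were corrected with loess offsets (span 0.5). The deviations of same-numbered TNF and TNF_SnxB libraries had correlations of -0.00662, -0.0157 and -0.0142. These values cannot exclude pairing, because the TNF_SnxB deviations include the large difference of library 1 from the others.

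Named genes were the 15 largest agreeing falls and rises without overlap and at 1 CPM or more, up to 5 agreeing members per list, the Mediator kinase module, interaction calls, genes beside the threshold, and strongly TNFα-raised genes; 34 lists were used. Some further agreeing members and genes were named after their values were seen. The comparison and lists were chosen with earlier results of these data known. Alternatives were DESeq2 1.42.0, median-of-ratios size factors, no filter, only the groups compared, a replicate block, GC and length correction, thinning of TNF library 2, a 1.5-fold minimum and leaving out each library. Leaving out TNF_SnxB libraries 2 and 3, or a DMSO or SnxB library, was added after seeing the data. The script was tested on simulated data.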

Additional observations from a re-analysis of the deposited data

Results flagged for a closer look

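For 6 agreeing genes the inhibitor effect with TNFα differed from that without it, by the edgeR interaction test in TNF_SnxB library 1 alone and in libraries 2 and 3. The values are the log2 fold change of TNF_SnxB against TNF minus that of SnxB against DMSO (edgeR). NFKBIA had -0.8176 (SE 0.0907, adjusted p = 1.3e-05), with changes of -0.65 with TNFα and 0.17 without. SDC4 had -0.6095 (SE 0.0906, adjusted p = 0.00128), with -0.78 and -0.17. TIFA had 0.6514 (SE 0.0947, adjusted p = 0.00128), with 0.54 and -0.11. The library 1 values of these 3 genes, -0.70, -0.71 and 0.59, stayed on the same side of the threshold in all 20 alternatives. JUN had -0.378 (SE 0.0662, adjusted p = 0.0141), with -1.63 and -1.25, and lost its library 1 call under the settings named in the report. APRT had -0.3055 (SE 0.0598, adjusted p = 0.0197) and FASN -0.334 (SE 0.0646, adjusted p = 0.0192). With the GC and length correction their library 1 values were -0.078 (adjusted p = 0.827) and -0.028 (0.939). Groups of 3 were not tested for single outlying libraries.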

How the results depend on the processing

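The 326 agreeing genes became 163 with DESeq2 (20 of the 326 had no DESeq2 value) and 49 with a 1.5-fold minimum. With the GC and length correction 323 agreed, of which 233 were among the 326, and 263 to 386 when 1 library was left out. Each count here and below is of the genes called under that setting, which are not all the same genes. Rises held less well: the 79 higher genes became 28 with DESeq2, 30 without the low-count filter and 2 with the fold minimum. The 247 lower genes became 135, 280 and 47 under these settings. Of the agreeing genes 121 lower and 22 higher ones kept their call in all 19 alternatives other than the fold minimum that gave a value. With the replicate block 279 genes agreed, and 266 with the block and the GC correction. Whether the replicate numbers pair the libraries could not be decided from the correlations given above, because the TNF_SnxB libraries did not behave alike.

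All 3 TNF_SnxB libraries against TNF gave 4029 genes, 2442 with only the groups compared, 1594 with the GC correction, 1606 with the replicate block and that correction, 193 with the fold minimum, 403 without TNF_SnxB libraries 2 and 3, and 1869 to 6769 without 1 library. Of the 1594, 571 lower and 423 higher genes were among the 4029. Library 1 alone gave 399, 190 with DESeq2, 77 with the fold minimum and 313 to 488 without 1 library. Libraries 2 and 3 gave 6792, 2109 with the GC correction, 1958 with the block and the correction, 323 with the fold minimum and 5211 to 6951 without 1 library. SnxB against DMSO gave 301, 682 and 719 with the GC correction without and with the block, 60 with the fold minimum, 864 without TNF_SnxB libraries 2 and 3, and 172 (without SnxB library 2) to 879 (without TNF_SnxB library 1). The average TNFα effect gave 784, 98 with the fold minimum, and 526 (without TNF library 2) to 3438 (without TNF_SnxB library 1). The interaction gave 8, 3 with DESeq2, 5 with the block and the GC correction, 2 with the fold minimum, and 4 (without SnxB library 2) to 26 (without DMSO library 2). The cause of these changes was not tested.

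Of 2529 values of named genes under alternatives 2368 kept direction and call, 145 lost the call, 9 gained it and 7 reversed. Without TNF_SnxB libraries 2 and 3 the log2 fold changes were -0.01124 (CCNC), -0.03619 (CDK19), -0.04285 (CDK8) and 0.02793 (MED12). CDK8 was -0.006413 without TNF_SnxB library 2 and 0.1107 without library 1, and MED12 was 0.04051 with the GC correction and 0.02898 with the block and the correction. Agreement could not be formed without TNF_SnxB library 1 or without libraries 2 and 3, and the interaction was not run with only the groups compared. Depth limits genes near 1 CPM, such as CCL20 and CXCL2, where 3 counts are 0.0589 to 0.345 CPM.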

Other observations

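Other agreeing genes, chosen after their values were seen, lie outside the lists above. TXNIP and ARRDC4, arrestin-domain proteins that respond to glucose, fell from 24.8 ± 0.992 to 10.8 ± 1.25 CPM and from 31.7 ± 0.407 to 19.4 ± 1.65 (SD over 3 libraries in each group). IRS2, an insulin receptor substrate like IRS4, fell from 137 ± 3.75 to 77.7 ± 2.42 CPM, and TRIB1, a pseudokinase, from 53.7 ± 1.48 to 31.1 ± 0.347. The transcription factors SOX4 and SOX11 fell from 181 ± 6.60 to 114 ± 3.52 CPM and from 77.5 ± 6.35 to 51.8 ± 2.10, and the Wnt receptor FZD8 from 45.2 ± 0.769 to 25.2 ± 2.24. CXCR4, the receptor of CXCL12, fell from 8.19 ± 1.05 to 3.82 ± 0.216 CPM. The log2 fold changes of these 8 genes without TNFα ran from -1.71 in CXCR4 to -0.51 in FZD8.

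Among genes that rose, MASTL, a kinase that keeps cells in mitosis, went from 81.2 ± 0.399 to 103 ± 6.06 CPM. RACGAP1, which acts in cytokinesis, went from 145 ± 6.13 to 174 ± 0.943 CPM, and HJURP, the chaperone of the centromeric histone, from 47.7 ± 2.11 to 61.8 ± 1.46. MASTL, RACGAP1 and HJURP kept their agreement under every alternative other than the 1.5-fold minimum that gave a value.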
